A study of Mus musculus with 8 samples.

Results

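Dppa2, Dppa3, Dppa4 and Dppa5a, genes named as developmental pluripotency associated, were followed in mouse embryonic stem cells (ESCs) and in primordial germ cell-like cells (PGCLCs) with and without Tfap2c. Dppa3 is also known as Stella. The members were all probe sets of the expression array that name only 1 of these genes, which gave 5 probe sets for 4 genes, of 34945 probe sets that name 1 gene and 18193 genes in all. Dppa2 had 2 probe sets and each of the other genes had 1.

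DPPA3 is a small basic protein of primordial germ cells, oocytes and ESCs. It protects the maternal genome from loss of methylation after fertilization, and it keeps UHRF1, the factor that brings the maintenance methyltransferase DNMT1 to DNA, away from chromatin. DPPA2 and DPPA4 are SAP-domain DNA-binding proteins which act as a pair, keep promoters of developmental genes free of DNA methylation, and can switch on Dux and the programme of the 2-cell embryo. Dppa5a, also called Esg1, encodes a KH-domain RNA-binding protein of ESCs whose relatives Ooep and Khdc3 work in the oocyte.

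All cells carried the Blimp1mVenus transgene, which reports expression of Prdm1. Control ESCs were the parental lines with Tfap2c flox/flox alleles, and Tfap2c-/- ESCs came from them by transient transfection of a Cre plasmid driven by the pGK promoter. PGCLCs, which the sample labels call PGC, were made from either genotype through epiblast-like cells in the presence of BMP4, BMP8b, SCF, LIF and EGF and were sorted for the reporter. Each of the 4 groups has 2 samples, 1 array each. The study describes arrays of 2 ESC lines, each as control and as Tfap2c-/- cells derived from it, for ESCs and for PGCLCs. By that account the design is paired by line. The labels do not say which line a sample came from, so samples were not paired in the main fit. The p-values measure the spread between these samples, which may be technical in part.

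Before the members, the labels and arrays were checked. Tfap2c, the targeted gene, read 7.88 and 9.14 for control ESC samples, 7.28 and 6.47 for Tfap2c-/- ESC samples, 9.84 and 10.29 for control PGCLC samples and 8.52 and 8.85 for Tfap2c-/- PGCLC samples (log2 values of its brightest probe set). Both knockout samples were below both controls in either cell type, with differences of -1.63 (adjusted p = 1.00, limma) in ESCs and -1.38 (adjusted p = 0.150, limma) in PGCLCs. Whether its probes lie in the deleted part is not given in the sources used here, so these values do not check the deletion. The study itself genotyped the ESC lines by PCR and stained them for TFAP2C protein. All 7 measured ESC markers were above the array median in all 4 groups, with a mean of 10.02 to 10.18 in the ESC arrays and 8.79 to 9.72 in the PGCLC arrays. The 5 measured PGC markers, of 6 listed, averaged 6.80 to 7.56 in ESCs, 8.75 to 9.03 in control PGCLCs and 7.74 to 7.81 in Tfap2c-/- PGCLCs. This list includes Tfap2c and Prdm1, on whose reporter the PGCLCs were sorted, and Nanos3 had no probe set of its own. The other markers were mixed in Tfap2c-/- PGCLC samples. Kit read 6.84 and 6.94 there, against 7.70 to 8.09 in ESCs. Dnd1 read 7.83 and 7.18, against 5.8 to 6.4, and Prdm14 7.41 and 8.05, against 7.63 to 7.71. The PGC marker mean thus does not show by itself how germ cell-like the knockout samples were. The 5 primed epiblast markers averaged 4.70 to 4.95 in ESCs, 5.05 and 5.34 for control PGCLC samples, and 6.0 and 5.66 for Tfap2c-/- PGCLC samples. In the knockout of PGCLCs their median difference was 1.26 and 1 of 5 passed, where 3.09% of all genes did. It was Pou3f1, which rose by 1.33 (adjusted p = 0.0344, limma; 0.87 by the mean of its probe sets). The others were mixed and did not pass, with Dnmt3b at 1.32, Otx2 at 1.26, Fgf5 at -0.21 and Sox3 at -0.50. Pou3f1 lost the call without any 1 of the PGCLC or control ESC arrays (1.14 to 1.51). Means of 7 fibroblast markers (2.67 to 3.57) and of 7 primitive endoderm markers (3.08 to 3.65) lay near or below the array medians of 3.47 to 3.55, and none of these genes passed in any comparison. Single markers were higher in PGCLCs. Col1a1 read 2.83 to 3.13 in ESCs, 5.06 and 3.13 for control PGCLC samples and 5.27 and 4.30 for Tfap2c-/- PGCLC samples, and Gata6 read 3.02 to 3.47, then 4.63 and 3.08, then 4.48 and 4.06 in the same order. The RNA controls also differed. Poly-A spike-in probe sets averaged 5.42 to 5.91 in ESCs, 5.84 and 7.91 for control PGCLC samples and 7.44 and 6.72 for Tfap2c-/- PGCLC samples. Every PGCLC array except control sample 1 was thus above all ESC arrays. Control PGCLC sample 2 was the highest. Its difference between 3′ and 5′ Gapdh probe sets also stood apart, at 0.95 against 0.31 to 0.52 on the other arrays. The part of these markers and controls in the results was not tested, and several results are also given without that array.

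Dppa3 was the member that moved most. Its log2 values were 5.27 and 7.88 for control ESC samples, 4.62 and 6.55 for Tfap2c-/- ESC samples, 10.37 and 10.87 for control PGCLC samples and 6.28 and 6.40 for Tfap2c-/- PGCLC samples. Both control PGCLC samples were above every other array, and both Tfap2c-/- PGCLC samples lay between the values of the 2 control ESC samples. Group means were 10.62 ± 0.35 (SD, n = 2) in control PGCLCs, 6.34 ± 0.09 (SD, n = 2) in Tfap2c-/- PGCLCs, 6.57 ± 1.85 (SD, n = 2) in control ESCs and 5.59 ± 1.36 (SD, n = 2) in Tfap2c-/- ESCs. As RNA was taken from whole samples, fewer cells that express a gene and less of its RNA per cell cannot be told apart.

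Dppa2 was high in ESCs and higher in PGCLCs. The probe set with the higher mean, which stands for the gene below, read 9.21 and 9.40 for control ESC samples, 9.32 and 8.83 for Tfap2c-/- ESC samples, 10.41 and 10.25 for control PGCLC samples and 10.61 and 10.83 for Tfap2c-/- PGCLC samples. All 4 PGCLC samples were above all 4 ESC samples, and both knockout PGCLC samples were above both controls. This probe set is of a type that an alternative fit left out as liable to cross-hybridize. The other probe set gave 8.75 and 9.14 for control ESC samples, 8.94 and 8.49 for Tfap2c-/- ESC samples, 10.03 and 9.89 for control PGCLC samples and 9.98 and 10.21 for Tfap2c-/- PGCLC samples. It separated the cell types in the same way, but on it the genotypes of PGCLCs overlapped.

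Dppa4, the partner of Dppa2, behaved like it between cell types. Its log2 values were 9.74 and 9.79 for control ESC samples, 9.77 and 9.79 for Tfap2c-/- ESC samples, 10.61 and 10.64 for control PGCLC samples and 10.30 and 10.63 for Tfap2c-/- PGCLC samples. The 4 ESC samples lay within 0.06 of each other and below all PGCLC samples, and the PGCLC genotypes overlapped.

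Dppa5a was among the brightest features of every array. It read 13.23 and 13.34 for control ESC samples, 13.30 and 13.23 for Tfap2c-/- ESC samples, 13.23 and 13.18 for control PGCLC samples and 13.37 and 13.36 for Tfap2c-/- PGCLC samples. These values were 0.18 to 0.35 below the highest value of their array and above at least 99.973% of its probe sets. The groups lay close together, with a range of 0.19 over all arrays. Values so near the top of the scale can be compressed, which cannot be told apart from an even level. RefSeq lists the pseudogenes Dppa5b and Dppa5c on chromosome 9 and Dppa3-ps on chromosome X, and whether the probe sets of Dppa5a and Dppa3 also read such copies was not tested.

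**Figure D1:**
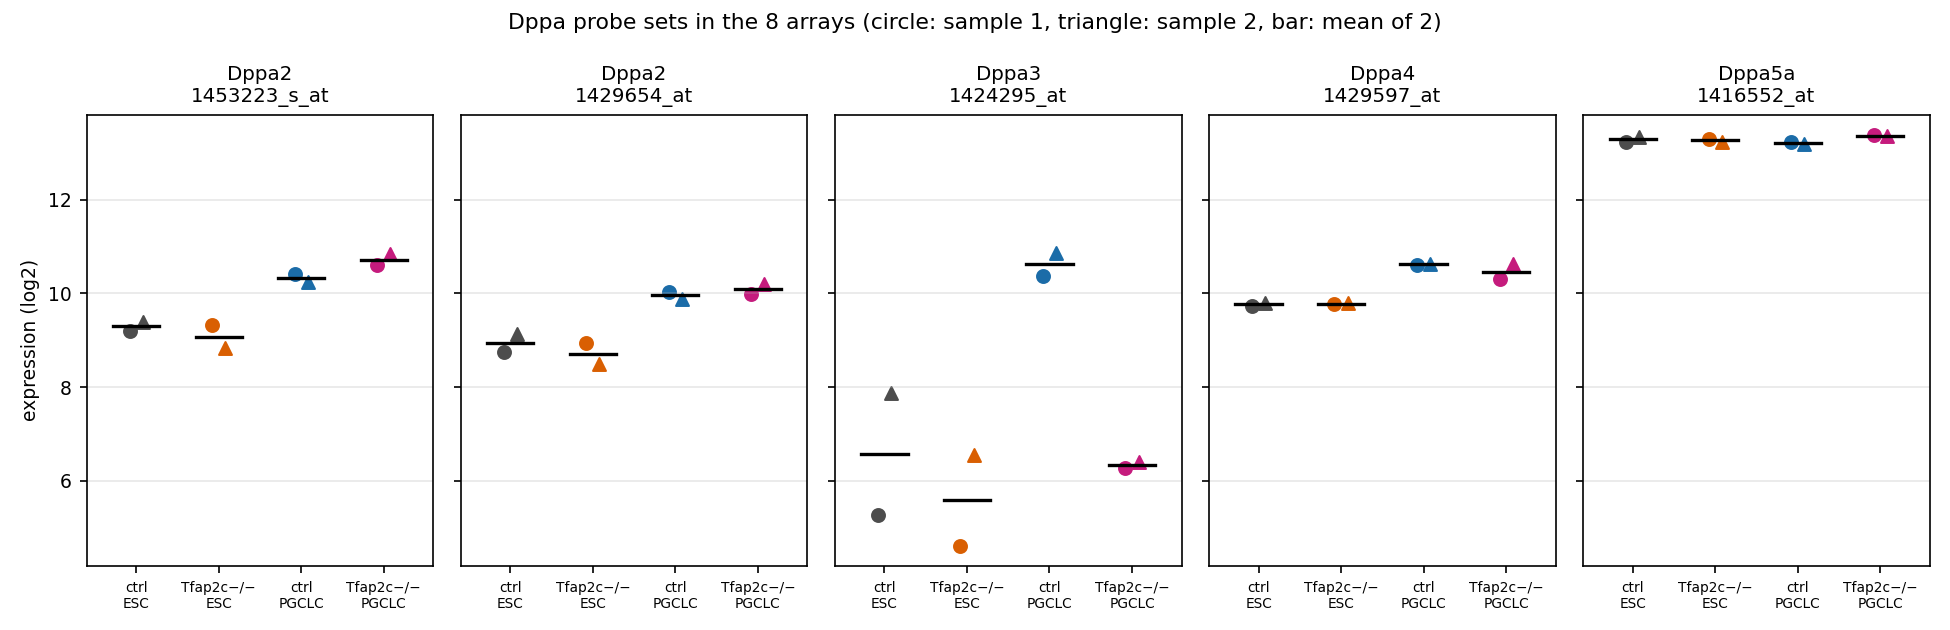
Log2 expression (vertical axis) of the 5 Dppa probe sets in the 4 groups (horizontal axis), with sample 1 as a circle, sample 2 as a triangle and the mean of 2 as a bar. Dppa3 stands at 10.37 and 10.87 in control PGCLCs and at 6.28 and 6.40 in Tfap2c-/- PGCLCs, both Dppa2 probe sets and Dppa4 are higher in PGCLCs than in ESCs, and Dppa5a stays between 13.18 and 13.37.

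The members differed in how well samples of a group matched. Within groups the SD was 1.16 for Dppa3, which 0.214% of genes exceeded, 0.21 for Dppa2, 0.12 for Dppa4 and 0.05 for Dppa5a. The last was exceeded by 97.950% of genes, but its values lie near the top of the scale, where spread can be compressed too. Most of the spread of Dppa3 came from ESCs. The gap between the 2 control ESC samples was 2.61, larger than that of all but 0.049% of genes, and the gap between the 2 Tfap2c-/- ESC samples was 1.93, exceeded by 0.396% of genes. In PGCLCs the gaps were 0.50 in controls and 0.12 in the knockout. In each of the 4 groups sample 2 was the higher one for Dppa3. Dppa4 showed gaps of 0.06 or less in 3 groups and of 0.33 in Tfap2c-/- PGCLCs.

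The loss of Tfap2c was compared first in PGCLCs, where the question is which germ cell genes need the factor. Dppa3 fell by 4.28 on the log2 scale (SE 0.85, 95% interval -6.25 to -2.30, adjusted p = 0.0413, limma), which is 19.4-fold lower, and both knockout samples were below both controls. Of all 18193 genes, 6 had a more negative difference. It was the 1 member of 4 that passed, where 3.09% of all genes passed and 1.80% passed as lower. Dppa2 differed by 0.40 (95% interval -0.01 to 0.81, adjusted p = 0.338, limma) on its brighter probe set and by 0.14 on the other. Dppa5a differed by 0.16 (95% interval 0.02 to 0.29, adjusted p = 0.236, limma), and both knockout samples were above both controls. Dppa4 differed by -0.16 (95% interval -0.44 to 0.12, adjusted p = 0.610, limma). Outside Dppa3, then, intervals reached no further than 0.81 above and 0.44 below the controls. Values of Dppa5a lie near the top of the scale and can be compressed, so its interval may not bound a change.

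The Dppa3 call depended on the fit. Its adjusted p was 0.0124 with only the PGCLC groups fitted (SE 0.19), which leaves out the spread between ESC samples, 0.0138 with the replicate number as a block (SE 0.56), 0.0246 to 0.0394 with 1 ESC array left out, and 0.0362 to 0.0449 with the arrays rescaled (limma). Adjusted p was above the threshold in other fits. It was 0.0509 when every probe set was tested as a feature, 0.0546 with the mean of the probe sets of each gene, 0.0545 without a trend of the variance on the level, and 0.263 without moderation of the variance, where 6 genes of all passed. Leaving out any 1 of the 4 PGCLC arrays also ended it, with the lone array assumed to vary like the other groups. The difference was then -4.53 without control sample 1 (adjusted p = 0.113, limma), -4.03 without control sample 2 (0.262), -4.22 without knockout sample 1 (0.164) and -4.34 without knockout sample 2 (0.204).

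In ESCs no member passed the comparison of Tfap2c-/- with control cells, and neither did any gene (0.0% of 18193). At an unadjusted p under 0.05, 455 genes differed, and without moderation of the variance 1 gene passed after adjustment. Dppa3 differed by -0.99 (95% interval -2.96 to 0.99, adjusted p = 1.00, limma), and the genotypes overlapped. Its direction rested on control ESC sample 2, since the difference was 0.32 without it. Dppa2 differed by -0.23 (95% interval -0.64 to 0.18), Dppa4 by 0.01 (-0.27 to 0.29) and Dppa5a by -0.02 (-0.15 to 0.12), and all overlapped between genotypes. Without Tfap2c-/- ESC sample 2 the difference of Dppa2 was 0.02 and that of Dppa5a 0.02. Without control ESC sample 1 that of Dppa4 was -0.02, and without control ESC sample 2 that of Dppa5a was 0.04.

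Whether the knockout acts differently in the 2 cell types was tested as a difference of the effects. For Dppa3 the effect in PGCLCs minus that in ESCs was -3.29 (SE 1.20, 95% interval -6.09 to -0.50, adjusted p = 0.470, limma). Leaving out control ESC sample 1 gave -1.98, and leaving out the other control ESC sample gave -4.60. The interval left out 0, but the difference did not pass after adjustment, where 0.148% of all genes passed. Values for the others were 0.63 (adjusted p = 0.510, limma) for Dppa2, -0.17 (0.845) for Dppa4 and 0.18 (0.604) for Dppa5a. That of Dppa2 was 0.36 on its other probe set and 0.38 without Tfap2c-/- ESC sample 2, and that of Dppa4 was -0.01 and -0.34 without knockout PGCLC samples 1 and 2. So 0 of 4 members passed here.

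Control PGCLCs were compared with control ESCs to see what the step to germ cell-like cells changes. Dppa3 rose by 4.05 on the log2 scale (SE 0.85, 95% interval 2.07 to 6.02, adjusted p = 0.0300, limma), which is 16.5-fold higher, and 9 genes of all had a more positive difference. Dppa2 rose by 1.02 (SE 0.18, 95% interval 0.61 to 1.43, adjusted p = 0.0155, limma), by the same 1.02 on its other probe set. Dppa4 rose by 0.86 (SE 0.12, 95% interval 0.58 to 1.14, adjusted p = 0.00716, limma). Dppa5a differed by -0.08 (95% interval -0.22 to 0.06, adjusted p = 0.476, limma). Thus 3 of 4 members passed, all higher, where 8.37% of all genes passed and 4.64% passed as higher.

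These calls rested on few arrays. Without moderation of the variance none of the 3 passed. With control ESC sample 1 left out Dppa3 differed by 2.74 (adjusted p by limma 0.111), 4.29 without control PGCLC sample 1 (0.0981) and 3.80 without control PGCLC sample 2 (0.157), and its adjusted p was 0.0539 and 0.0540 without knockout PGCLC samples 1 and 2, and 0.0543 when only the 2 groups were fitted. Dppa2 lost its call without any 1 of the 4 control arrays, with differences of 0.93 and 1.12 without ESC samples 1 and 2 and 0.94 and 1.10 without PGCLC samples 1 and 2 (adjusted p = 0.0578 to 0.0998, limma). For Dppa4 the call ended when control ESC sample 1 was left out (0.83, with a limma adjusted p of 0.0578), and when control PGCLC sample 2 was (0.85, with one of 0.0597).

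Between Tfap2c-/- PGCLCs and Tfap2c-/- ESCs the members divided. Dppa2 rose by 1.65 on the log2 scale (SE 0.18, 95% interval 1.24 to 2.06, adjusted p = 0.00870, limma), which is 3.14-fold higher, and by 1.38 on its other probe set. Dppa4 rose by 0.69 (SE 0.12, 95% interval 0.41 to 0.97, adjusted p = 0.0346, limma). Dppa3 differed by 0.76 (95% interval -1.22 to 2.73, adjusted p = 0.668, limma) with overlapping samples, and by -0.21 without Tfap2c-/- ESC sample 1. Dppa5a differed by 0.10 (95% interval -0.04 to 0.23, adjusted p = 0.414, limma). So 2 of 4 members passed, both higher, where 2.32% of all genes passed and 1.35% passed as higher. Without moderation of the variance neither passed. With only these 2 groups fitted, where 56 genes of all passed, Dppa2 had an adjusted p of 0.0604 by limma. Dppa4 lost its call in that fit, without a trend of the variance, and without any array except knockout PGCLC sample 1, with differences from 0.52 (without knockout PGCLC sample 2) to 0.70.

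**Figure D2:**
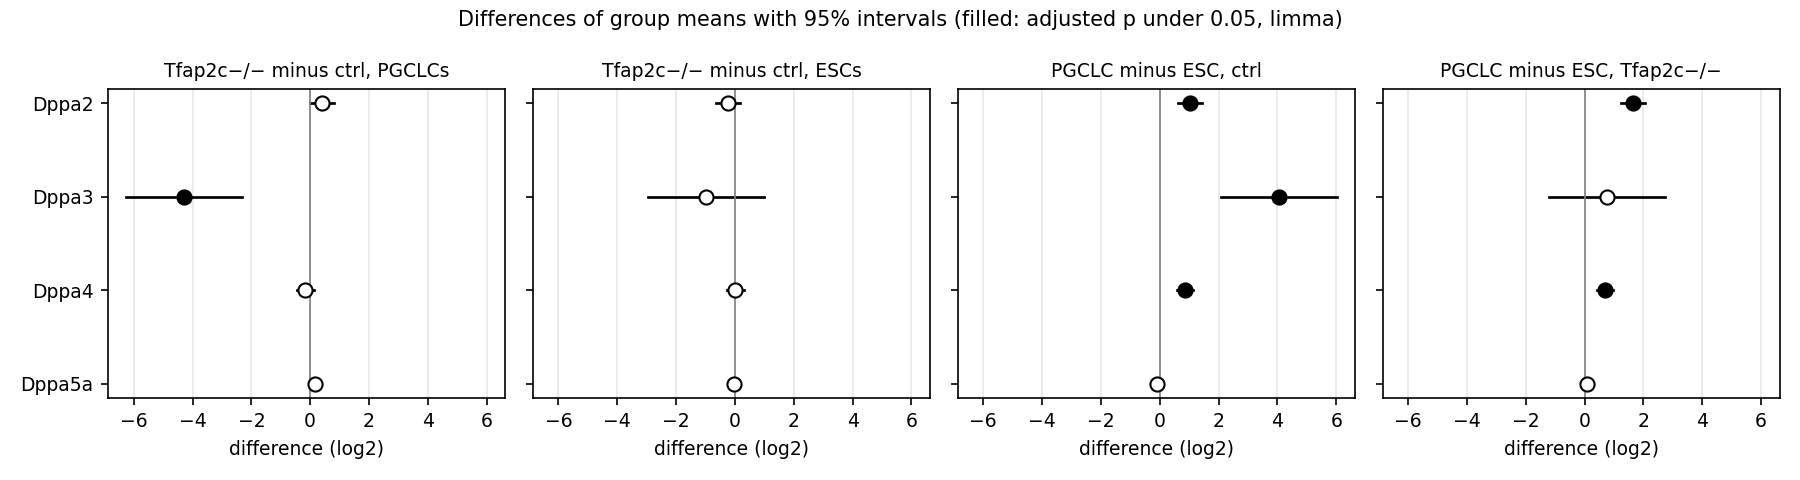
Differences of group means on the log2 scale (horizontal axis) for the 4 Dppa genes (vertical axis) in 4 comparisons, with 95% intervals from limma as lines and a filled point where adjusted p was under 0.05. Dppa3 lies at -4.28 in the knockout of PGCLCs and at 4.05 between control PGCLCs and ESCs, while Dppa2 and Dppa4 are above 0 between PGCLCs and ESCs of either genotype.

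The study itself called a gene by a difference above 1.5 on the log2 scale, without a test. By this rule, on any probe set, Dppa3 passed in the knockout of PGCLCs, where 2.32% of all genes did, and no member passed in ESCs, where 0.132% did. Dppa3 also passed between control PGCLCs and ESCs, beside 4.61% of all genes, and Dppa2 passed between Tfap2c-/- PGCLCs and ESCs, beside 2.94%. Dppa2 did so on its brighter probe set only, at 1.65 against 1.38 on the other. The rise of Dppa2 and Dppa4 in control cells is below that size. Apart from the arrays, the study reported Stella as lower in Tfap2c-/- PGCLCs by quantitative RT-PCR, done in biological triplicates. It also reported reduced Stella in these cells by RT-PCR that was not quantitative in this way, run on PGCLCs of both lines.

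The members were set beside the genes that lie next to them, in the order of the RefSeq gene table. Dppa2 and Dppa4 are neighbours on chromosome 16, Dppa3 lies on chromosome 6 between Gdf3 and Nanog, and Dppa5a on chromosome 9 beside Ooep. Of 30 protein-coding neighbours, 5 on each side, 24 were measured. None of them passed in the knockout of PGCLCs, where 3.09% of all genes did. Their median difference there was 0.00 and that of all genes -0.04. Gdf3, a ligand of the TGF-beta family, differed by 0.49 (adjusted p = 0.226, limma) and Nanog, a core pluripotency factor, by 0.07 (adjusted p = 0.841, limma), where Dppa3 between them fell by 4.28. Ooep and the helicase gene Ddx43, the neighbours with the largest differences there, were at 0.82 (adjusted p = 0.297, limma) and 0.71 (adjusted p = 0.172, limma). Without control PGCLC sample 2 Ooep was at 0.45 and Ddx43 at 0.58, and Foxj2, at -0.64 on all arrays, was further from 0 at -0.89. Between control PGCLCs and ESCs 2 of the 24 neighbours passed, where 8.37% of all genes did, so the count is near that share. Both were lower and named after their values were seen. Morc1, a gene of transposon silencing in the male germ line that adjoins Dppa2, fell by 1.00 (adjusted p = 0.0277, limma), and Nanog fell by 0.55 (adjusted p = 0.0235, limma). Morc1 lost the call without control ESC sample 1 (-0.70) or control PGCLC samples 1 (-1.05) or 2 (-0.96), and Nanog without any 1 of the 4 control arrays (-0.60 to -0.50) or without a trend of the variance.

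**Figure D3:**
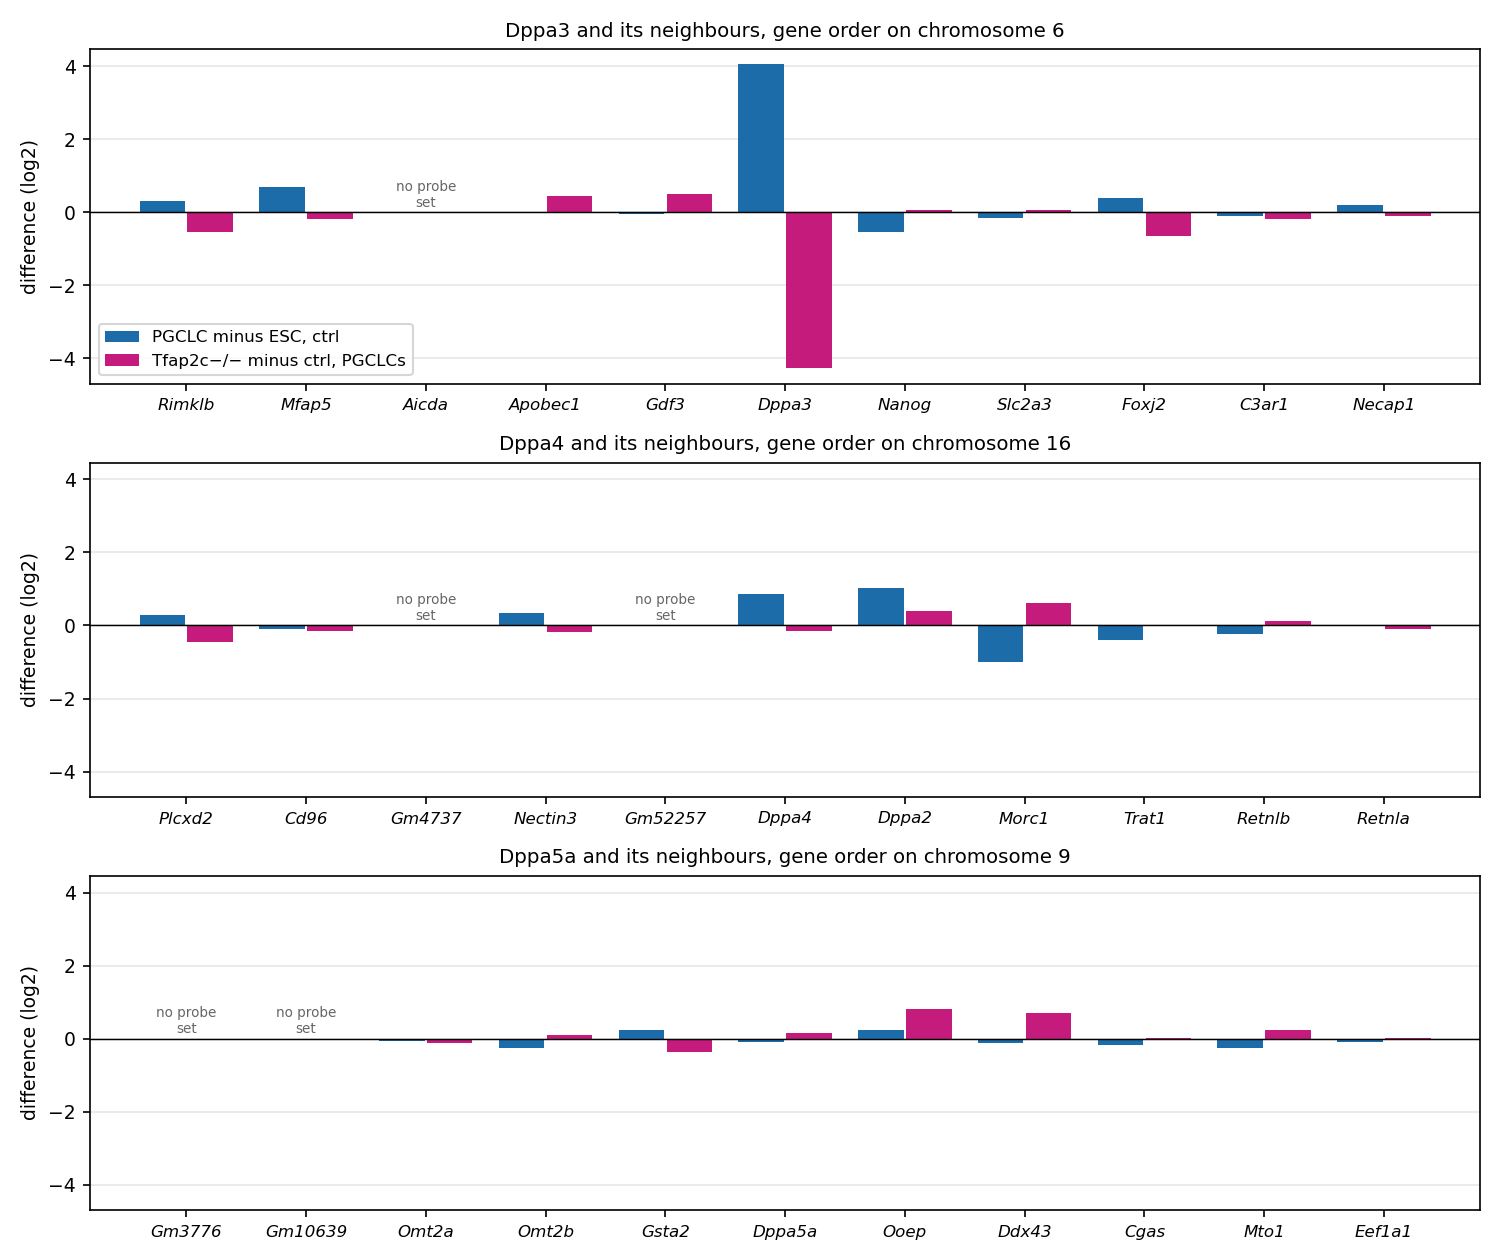
Log2 differences (vertical axis) of Dppa3, Dppa4 with Dppa2, and Dppa5a and of their neighbours in gene order (horizontal axis, not to genomic scale), for control PGCLCs minus control ESCs in blue and Tfap2c-/- minus control PGCLCs in magenta. Genes without a probe set of their own carry no bar. The bars of Dppa3, at 4.05 and -4.28, stand among neighbours that lie between -0.64 and 0.68.

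Genes tied to the members' functions were described from lists. Over all genes the median difference was -0.04 and 3.09% passed in the knockout of PGCLCs, and it was -0.03 and 8.37% passed between control PGCLCs and ESCs. Without moderation of the variance, none of the list genes or neighbours named as called held its call, and with only the 2 groups compared Tle6, Itgb3, Klf4, Tdrd12, Morc1 and Pou3f1 lost theirs. Among 9 genes listed for DNA methylation or for a link to DPPA3, 1 passed in the knockout of PGCLCs, higher, and the median difference of the list was 0.55. It was Uhrf1, which read 8.69 and 8.29 for control PGCLC samples and 9.84 and 9.95 for Tfap2c-/- PGCLC samples, against 10.12 to 10.60 in ESCs. Uhrf1 rose by 1.41 in the knockout (SE 0.18, adjusted p = 0.0103, limma) and fell by 1.67 from control ESCs to control PGCLCs (SE 0.18, adjusted p = 0.00356, limma), so its samples lay opposite to those of Dppa3 in both comparisons. The rise was no longer called without control PGCLC sample 2 (1.20, adjusted p = 0.0815, limma) or without knockout sample 1 (1.46, 0.0502) or 2 (1.36, 0.0891). The other 8 genes did not pass in either comparison. Dnmt1 differed by -0.24 in the knockout of PGCLCs, Dnmt3b by 1.32 (adjusted p = 0.0777, limma), Dnmt3l by 3.22 (0.0585) and Tet2 by 1.18 (0.0625). Dnmt3l read 6.51 and 4.01 in the 2 control PGCLC samples, so its difference was 1.97 without control sample 2 (adjusted p = 0.134, limma) and 4.47 without control sample 1 (0.00673). With the replicate number as a block its adjusted p was 0.0231 by limma. Dnmt3b passed in 2 of 19 alternative fits, those without control ESC sample 1 or 2, which leave its difference in PGCLCs unchanged. Over all these fits its difference ran from 1.12 to 1.52.

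Genes of the 2-cell programme, or dependent on DPPA2 and DPPA4, were mostly out of view. Only 8 of 18 listed genes had a probe set of their own and Dux was not among them. Of these 8, 5 were below the median of their array on all arrays. None of the 8 passed in any comparison, with a median difference of 0.15 in the knockout of PGCLCs and of -0.18 between control PGCLCs and ESCs. The members with the largest differences in the knockout of PGCLCs were the meiotic gene Syce1, at 0.49 (adjusted p = 0.734, limma; -0.01 to 0.99 with 1 array left out), and Tcstv1, at -0.35 (adjusted p = 0.324, limma; -0.56 to -0.13), a gene below the array median throughout.

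The relatives and partners of Dppa5a gave 0 of 4 measured KH-domain genes that passed in any comparison. Ooep read 8.78 and 9.14 for control ESC samples, 9.43 and 8.45 for Tfap2c-/- ESC samples, 9.55 and 8.82 for control PGCLC samples and 10.03 and 9.98 for Tfap2c-/- PGCLC samples. Both knockout PGCLC samples were the highest of the 8. Khdc3, also a subunit of the maternal complex of the oocyte, differed by -0.67 in the knockout of PGCLCs (adjusted p = 0.484, limma; -0.09 without knockout sample 1 and -1.24 without knockout sample 2). Without control PGCLC sample 2 it was at -0.42.

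In the list of maternal-effect genes, where Ooep and Khdc3 stand as well, 1 of 7 measured genes passed. Tle6, another gene of that complex, read 5.46 to 5.68 in the 4 ESC samples, 7.39 and 7.03 for control PGCLC samples and 5.75 and 5.81 for Tfap2c-/- PGCLC samples. It fell by 1.43 in the knockout (SE 0.18, adjusted p = 0.00944, limma) and rose by 1.54 between control ESCs and PGCLCs (adjusted p = 0.00422, limma), the directions of Dppa3. The fall was no longer called without knockout sample 1 (-1.40, adjusted p = 0.0551, limma) or 2 (-1.46, adjusted p = 0.0716, limma).

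Of 12 genes described in ESCs together with the Dppa genes 11 were measured, and in the knockout of PGCLCs 1 passed as higher and 2 as lower, with a median of 0.07. Eras, an ESC-specific Ras gene, rose by 3.53 (SE 0.36, adjusted p = 0.00455, limma) from 5.96 and 5.27 to 8.90 and 9.39. Sox15 fell by 2.45 (SE 0.28, adjusted p = 0.00685, limma) and Tdrd12, a Tudor gene of the piRNA pathway, by 0.99 (SE 0.20, adjusted p = 0.0413, limma). Sox15 lost its call without control sample 2 (-2.32) or knockout sample 2 (-2.33), and Tdrd12 without any 1 of the PGCLC or control ESC arrays (-1.13 to -0.86), with every probe set as a feature, without a trend of the variance or with array medians set equal.

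Early germ cell genes were the list nearest to Dppa3 in role. In control PGCLCs 6 of 9 measured genes were higher than in control ESCs and 0 lower, with a median of 1.39 where that of all genes was -0.03. Among them Dnd1, which encodes an RNA-binding protein of germ cells and was named after its values were seen, rose by 2.12 (adjusted p = 0.00479, limma). In the knockout of PGCLCs 0 passed as higher and 2 as lower, with a median of -0.81. The list holds Prdm1, on whose reporter the PGCLCs were sorted, and the deleted gene Tfap2c. Without both, 5 of 7 passed as higher between those groups (median 0.91), and 2 of 7 passed as lower in the knockout (median -0.59). Kit, the receptor of SCF, fell by 1.91 (SE 0.20, adjusted p = 0.00513, limma) and the integrin gene Itgb3 by 1.97 (SE 0.27, adjusted p = 0.0132, limma). Itgb3 lost its call without control sample 2 (-1.59) or knockout sample 1 (-1.76) or 2 (-2.18), and the mean of its probe sets gave -1.11. It was above the array median on only the 2 control PGCLC arrays, so its fall may be understated.

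Of 11 genes of naive and core pluripotency 1 passed in the knockout of PGCLCs, higher, and between control PGCLCs and ESCs 4 passed, all lower, with a median of -0.55. Klf4 read 11.03 and 10.98 in control ESCs, 6.91 and 6.65 for control PGCLC samples and 8.52 and 9.48 for Tfap2c-/- PGCLC samples. It rose by 2.22 in the knockout (SE 0.28, adjusted p = 0.00944, limma), which did not pass when control sample 2 was left out (2.09, adjusted p = 0.0858, limma). Between control PGCLCs and ESCs Dppa2 and Dppa4 passed as higher, while 4 of the 11 passed as lower and none as higher. Klf2, Pou5f1 and Sox2 had positive differences there that did not pass (0.28, 0.11 and 0.04). For Pou5f1 both control PGCLC samples were above both control ESC samples.

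Finally, the genes whose pattern over the 8 arrays was most like that of each member were sought among 1217 genes with a range of at least 2 on the log2 scale. With 8 arrays that share 4 groups, a high Pearson correlation mostly says that the group levels have the same order, and it is given as a description. Among the members, Dppa2 and Dppa4 followed each other with r = 0.90, Dppa3 had 0.66 with Dppa4 and 0.39 with Dppa2, and Dppa5a had -0.48 with Dppa3.

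Nfkbiz (r = 0.98), which encodes a nuclear IkB protein, was closest to Dppa3, followed by Lzts1 (0.97), Ap3m2 (0.96), Hsdl1 (0.96) and Phf13 (0.95), a reader of histone methylation. Nfkbiz read 7.41 and 7.84 for control PGCLC samples, 4.83 and 4.51 for Tfap2c-/- PGCLC samples and 3.41 to 4.86 in ESCs. The other 4 were between 1.76 and 2.06 lower in the knockout of PGCLCs than in controls, and Nfkbiz was lower by a difference of -2.95. The size depended on the probe set for Ap3m2 and Nfkbiz, where the mean of probe sets gave -0.58 and -1.78. Lzts1 was below the array median in ESCs and in Tfap2c-/- PGCLCs, so its difference may be understated.

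**Figure D4:**
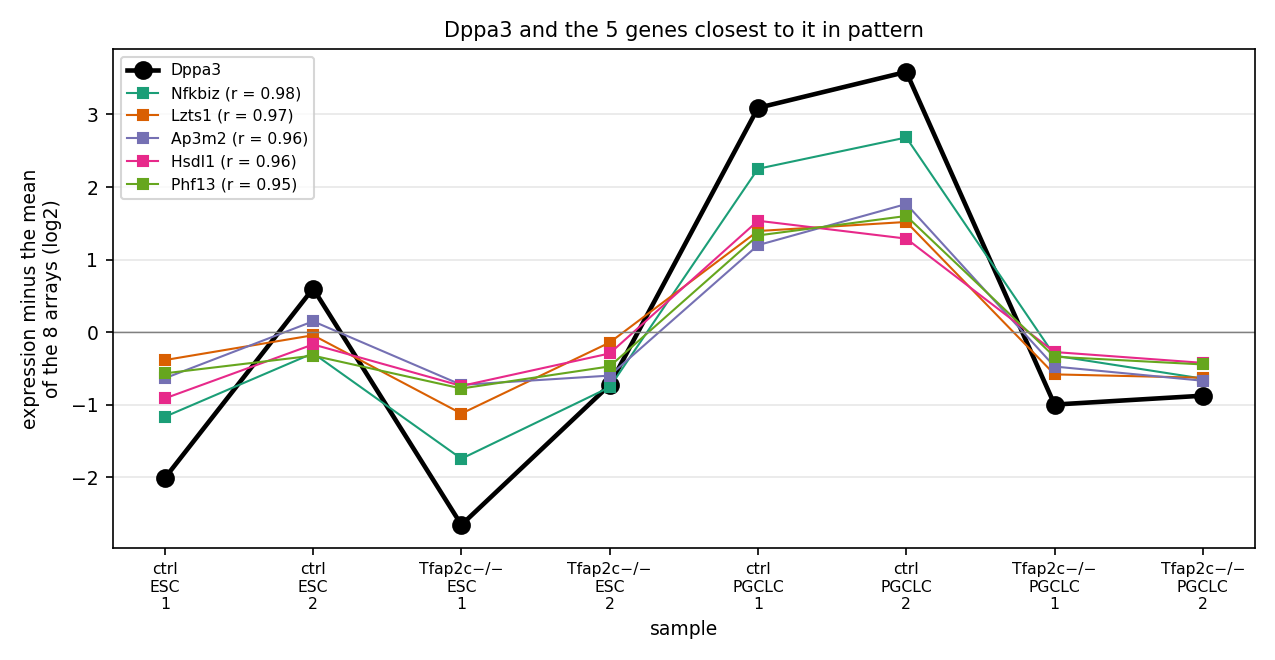
Log2 expression minus the mean of the 8 arrays (vertical axis) in each sample (horizontal axis) for Dppa3 in black and the 5 genes closest to it in pattern. All 6 genes are highest in the 2 control PGCLC samples, and the knockout PGCLC samples are back near the ESC samples.

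For Dppa2 the closest were Enpp3 (0.98), Skil (0.97), a repressor of SMAD signalling, Per3 (0.97), Ppfibp2 (0.96) and Amot (0.96). Amot read 4.81 to 5.06 in ESCs and 7.82 to 8.74 in PGCLCs, high in both genotypes like Dppa2. For Dppa4 they were Atp11a (0.99), Htra1 (0.98), Bcl2l11 (0.98), which encodes the apoptosis activator BIM, AU015836 (0.97) and Pkdcc (0.96). Bcl2l11 read 5.56 to 5.87 in ESCs, 8.10 and 8.27 for control PGCLC samples and 7.70 and 7.84 for Tfap2c-/- PGCLC samples. Dppa5a, with its range of 0.19, was closest to Gpx7 (0.93), Eras (0.92), Gstt2 (0.92), Anxa8 (0.90) and Fez1 (0.90), whose group mean was highest in Tfap2c-/- PGCLCs. These genes moved by at least 2 on the log2 scale where Dppa5a moved by less than 0.2, so the likeness is one of order and not of size.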

How the data were processed

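RNA of 8 samples was measured on Affymetrix mouse expression arrays, and the deposited table holds 1 value per probe set and array on the log2 scale. The study's methods name RMA for the normalization by the authors, and the submitters' processing notes name GCRMA. Background correction and scaling were therefore taken as deposited, and no further normalization was applied. Values ran from 1.10 to 13.6 with array medians of 3.47 to 3.55, and no array was a copy of another. Of 45101 probe sets 64 are controls, 34945 name 1 gene, 932 name several and 9160 are not listed in the annotation used. Probe-level intensities were not analysed here. The precision is limited by the 2 arrays in each group.

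A gene was represented by its probe set with the highest mean. The 4 groups were fitted together in limma 3.58.1 (R 4.3.3) with eBayes and a trend on the level, which gave 7.67 degrees of freedom with the moderated variance. Both directions were tested, p was adjusted by Benjamini-Hochberg over 18193 genes, and a gene passed under 0.05. The 5 comparisons were the knockout in each cell type, the difference of these effects, and PGCLCs against ESCs in each genotype. The code was tested on simulated data. Lists were tested as no set. Alternatives were other probe set rules, a filter on dim genes, other variance models, other scalings, the replicate number as a block, the fold rule of the study and leaving out each array.

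The members, lists and rules were chosen with earlier results of these data known. Named are the members, Tfap2c and the 5 genes most like each member. From each list up to 3 that passed in the knockout of PGCLCs are named, or the 2 with the largest difference there. Some genes were named outside this rule with their values known. Among them are Prdm14, Dnd1, Nanog, Gdf3, Dnmt1, Dnmt3b, Dnmt3l, Tet2, Klf2, Pou5f1, Sox2, Fgf5, Otx2 and Sox3. Gene order came from the RefSeq table of GRCm38.p6, which was used for names and neighbours only. Python 3.11.15, NumPy 2.4.6, pandas 2.3.3 and Matplotlib 3.10.9 were used for tables and plots.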

Additional observations from a re-analysis of the deposited data

How the results depend on the processing

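The number of members that passed was unchanged by the filter on dim genes, the removal of probe sets liable to cross-hybridize, and both rescalings, in all 5 comparisons. In the knockout of PGCLCs Dppa3 did not pass with the mean of probe sets, with every probe set as a feature, without a trend or without moderation, so 0 members did against 1, with the difference at -4.28 throughout. Leaving out 1 array gave 0 to 1 members and a Dppa3 difference of -4.53 to -4.03. Between control PGCLCs and ESCs 3 members became 0 without moderation, 1 by the fold rule on the same or any probe set, and 0 to 3 when 1 array was left out. Between Tfap2c-/- PGCLCs and ESCs 2 became 1 without a trend, 0 without moderation, 0 with only the 2 groups compared, 1 by either fold rule, and 1 to 2 when 1 array was left out. For the difference of the knockout effects 0 became 1, Dppa3, by either fold rule. The cause was not tested, beyond the fewer samples of the fits that leave out an array.

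Differences that changed sign did so when 1 array was left out, and none of them had passed. The range over such fits is given in brackets. In PGCLCs these were Dppa4 at 0.0017 (-0.33 to 0.0017) and Syce1 at -0.0147 (-0.0147 to 0.991) without knockout sample 1. In the knockout of ESCs they were Dppa2 at 0.0162 (-0.48 to 0.0162) and Dppa5a at 0.0175 without knockout sample 2, Dppa3 at 0.32 (-2.29 to 0.32) and Dppa5a at 0.0396 (-0.0758 to 0.0396) without control sample 2, and Dppa4 at -0.0165 (-0.0165 to 0.0385) without control sample 1. Between Tfap2c-/- PGCLCs and ESCs it was Dppa3 at -0.21 (-0.21 to 1.72) without ESC sample 1.

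Over all genes, 562 passed in the knockout of PGCLCs, 6 without moderation, 187 with only the 2 groups, 354 by the fold rule on the same probe set, and 87 to 609 when 1 array was left out. In ESCs 0 became 1 without moderation, 24 by the fold rule, and 0 to 1 with 1 array left out. Between control PGCLCs and ESCs 1522 became 104 without moderation, 635 and 838 by the fold rules, and 325 to 1721. Between the Tfap2c-/- groups 422 became 5, 56 with only the 2 groups, and 80 to 278. For the difference of effects 27 became 0 without moderation, 312 and 380 by the fold rules, and 1 to 56.

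Deviations of samples with the same number correlated at -0.33, 0.07 and -0.01 between control ESCs and the other groups (knockout ESCs, then control and knockout PGCLCs) and at 0.17, 0.26 and 0.39 among those, so not every pair was above 0.1 and the numbers were not taken as pairs. With the replicate number as a block the same members passed, 1, 0, 3, 2 and 0 of 4 in the order above, and Dppa3 in the knockout of PGCLCs had an adjusted p of 0.0138 by limma. A block with the numbers crossed in 1 ESC group, chosen after seeing the data, gave 1, 0, 3, 2 and 0 members and 912, 0, 2252, 927 and 42 genes.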
